A study of Mus musculus with 12 samples.

Results

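Barrier endothelium, the lining of vessels that restricts what passes from blood into nervous tissue, is described here through 10 genes in dorsal root ganglia (DRG), where the cell bodies of sensory neurons sit outside the spinal cord. The 10 members were taken by symbol from the 38594 Ensembl gene rows of the deposited table, and all 10 were found and passed the filter on low values. Slco1a4 was chosen by its adjusted p in the tests across times of day in these same libraries. Its values and calls are therefore given as a description and not as a test. The other 9 were named beside it as transporters and markers of the same endothelium, with earlier results of these data known. The samples were lumbar DRG, segments L1 to L6; the mice were C57BL/6J males, 6 to 12 weeks old and labelled as naive, with no other allele or agent named. Mice were killed at zeitgeber time (ZT, the label's hour of the daily cycle) 2, 8, 14 or 20, and 3 RNA-seq libraries were made at each of the 4 times. The series concerns the clock genes, excitability and pain sense of nociceptors by its title, and the comparison asks which transcripts differ with the time of day. Whether the libraries are from different animals is not in the labels, so p-values measure only the spread between libraries, which may be technical. Library numbers followed the order of the times, so time of day and any batch of collection or preparation cannot be told apart.

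Endothelial cells of neural barriers are joined by tight junctions, of which claudin-5 is a main component, and carry transporters that admit nutrients or return foreign compounds to the blood. Many of these genes are known from the blood-brain barrier, whereas vessels around the cell bodies of a DRG are known to be more permeable than those of the brain or of the nerve. Transport across such endothelium is known to vary over the day in other tissues and species. In whole ganglia the RNA of all cell types is pooled, so fewer cells of a type and less RNA per cell cannot be told apart.

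The members fall into transporters, junction and surface proteins, and growth factor receptors. Slco1a4 (ENSMUSG00000030237) encodes a carrier for organic anions such as bile salts, steroid conjugates and some drugs, and lies on the minus strand at chr6:141805440-141856199 of GRCm38. Abcb1a (chr5:8660077-8748575) encodes a rodent P-glycoprotein and Abcg2 (chr6:58584523-58695676) the breast cancer resistance protein, both ATP-driven pumps that return drugs to the blood. Slc2a1 (chr4:119108711-119137983) encodes the glucose transporter GLUT1, which perineurial cells are also known to carry. Cldn5 (chr16:18776847-18778262) encodes claudin-5, Cdh5 (chr8:104101625-104144511) the adherens junction protein VE-cadherin, and Pecam1 (chr11:106654217-106750628) the adhesion molecule CD31. Ly6c1 (chr15:75044018-75048830) encodes a lipid-anchored surface protein of endothelium. Flt1 (chr5:147561604-147726011) is a receptor for VEGF and Tek (chr4:94739289-94874976) is TIE2, the receptor for angiopoietins. All are protein-coding genes, and each interval spans the gene as annotated, exons and introns included.

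The 3 members whose levels moved most over the day were Slco1a4, Ly6c1 and Cldn5, and their promoters are shown so that the letters upstream of each can be compared. The sequences are RefSeq promoter windows of GRCm38.p6, running 5′ to 3′ from 250 bases before to 50 bases after the transcription start. Capitals mark matches, on either strand, to the motifs listed after them. Slco1a4 is at chr6:141856171-141856470 on the minus strand, Ly6c1 (the upstream one of its windows) at chr15:75048788-75049087 on the minus strand, and Cldn5 at chr16:18776597-18776896 on the plus strand.
Slco1a4: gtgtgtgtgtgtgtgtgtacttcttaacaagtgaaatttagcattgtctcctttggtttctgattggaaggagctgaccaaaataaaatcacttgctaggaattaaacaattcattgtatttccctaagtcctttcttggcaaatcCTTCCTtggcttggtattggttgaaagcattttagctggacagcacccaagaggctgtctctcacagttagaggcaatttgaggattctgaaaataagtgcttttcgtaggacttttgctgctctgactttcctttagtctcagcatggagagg
Ly6c1: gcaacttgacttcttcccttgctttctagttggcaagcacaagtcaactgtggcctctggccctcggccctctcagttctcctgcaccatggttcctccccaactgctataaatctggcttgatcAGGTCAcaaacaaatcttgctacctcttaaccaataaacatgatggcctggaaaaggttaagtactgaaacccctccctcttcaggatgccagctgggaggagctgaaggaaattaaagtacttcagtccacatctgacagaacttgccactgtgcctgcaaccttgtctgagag
Cldn5: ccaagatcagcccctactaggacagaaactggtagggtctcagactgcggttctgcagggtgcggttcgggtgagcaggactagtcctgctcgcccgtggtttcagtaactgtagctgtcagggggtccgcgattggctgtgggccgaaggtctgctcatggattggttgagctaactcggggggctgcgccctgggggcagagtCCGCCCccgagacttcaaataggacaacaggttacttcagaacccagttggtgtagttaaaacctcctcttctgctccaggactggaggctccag

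The table held 11 windows for 8 of the 10 members, with none for Pecam1 and Cdh5. The E-box CACGTG, through which the clock proteins CLOCK and BMAL1 are known to act, was in 0 of the 11 windows, against 7.15% of all 32851 promoters of that length. The D-box, searched as TTATGTAA and as TTACGTAA, was also in 0 of the 11, against 0.938% and 0.119% of all promoters. The Slco1a4 window held 1 ETS-type AGGAAG, read on the opposite strand 104 bases before the start; 7 of the 11 windows and 35.4% of all promoters held that motif. The Ly6c1 window held 1 nuclear receptor half-site AGGTCA, present in 3 of the 11 windows and in 16.3% of all promoters. The Cldn5 window held 1 GC box GGGCGG, present in 5 of the 11 and in 35.7% of all. The ETS form CCGGAA was in 0 of the 11 against 14.9% of all, and the glucocorticoid response core ACANNNTGT was in 1, that of Abcb1a, against 6.85%. The Abcb1a window, at chr5:8566841-8567140, lies upstream of and outside the annotated interval given above for that gene. A match or its absence describes these letters in this window alone.

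Depth was similar across libraries. The deposited values are on a coverage scale, already corrected for length, and summed per library to between 89.8 and 125.0 in units of 1000000, which was equivalent to roughly 24 to 33.5 in the same unit of sequenced fragments. Levels are given as CPM, the share of a library's scaled total multiplied by 1000000, and because the values are per length they can be set side by side between genes. Each member rested on many fragments: the smallest was Tek, with approximately 265 to 359 per library, and the largest was Ly6c1, with 613 to 1178. Attached skeletal muscle varied between libraries of the same time, the summed CPM of 10 muscle markers being 70.3 to 312 at ZT2, 73.1 to 328 at ZT8, 126 to 385 at ZT14 and 23.6 to 835 at ZT20. The summed CPM of 5 red cell markers was 1662 to 3991 at ZT2, 2213 to 2404 at ZT8, 3689 to 4037 at ZT14 and 780 to 1231 at ZT20. The 7 listed markers of brain and spinal cord summed to 52.7 to 95.8 CPM at ZT2, 76.2 to 109.6 at ZT8, 76.6 to 87.0 at ZT14 and 66.8 to 90.3 at ZT20, most of it from Foxj1, a gene of ciliated cells, with time means of 59.5 to 76.3 CPM. Among the others the astrocyte gene Aldh1l1 was at 5.82 to 6.72 CPM by time and Gfap at 0.62 to 0.81, the oligodendrocyte gene Mog at 0.04 to 0.05 and the choroid plexus gene Ttr at 0.80 to 1.02.

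Averaged over the 12 libraries, Ly6c1 was the most abundant member at 85.8 ± 15.7 CPM (SD, n = 12). Slc2a1 followed at 47.8 ± 3.23 CPM and Abcg2 at 44.2 ± 2.55 CPM; their ranges overlapped, although Slc2a1 was the higher of the pair in 11 of 12 libraries. Cldn5 came next at 28.3 ± 3.77 CPM. Below it 4 members lay close together, Pecam1 at 13.7 ± 1.18, Slco1a4 at 13.6 ± 1.98, Cdh5 at 13.2 ± 1.40 and Abcb1a at 12.5 ± 1.23 CPM, and neighbours among them kept that order in 6 or 7 of 12 libraries. The receptors were lowest, Flt1 at 8.82 ± 0.54 CPM and Tek at 3.58 ± 0.25 CPM. Every other pair of neighbours in this order was apart in all 12 libraries. All 10 markers behind the group's name were thus detected in every library. Other genes that mark brain barrier capillaries differed widely in level: the thyroid hormone carrier Slco1c1 had time means of 1.05 to 1.5 CPM and the lipid carrier Mfsd2a 32.8 to 40.2 CPM. Plvap, which marks permeable capillaries with openings, was present at time means of 5.75 to 10.5 CPM.

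**Figure D1:**
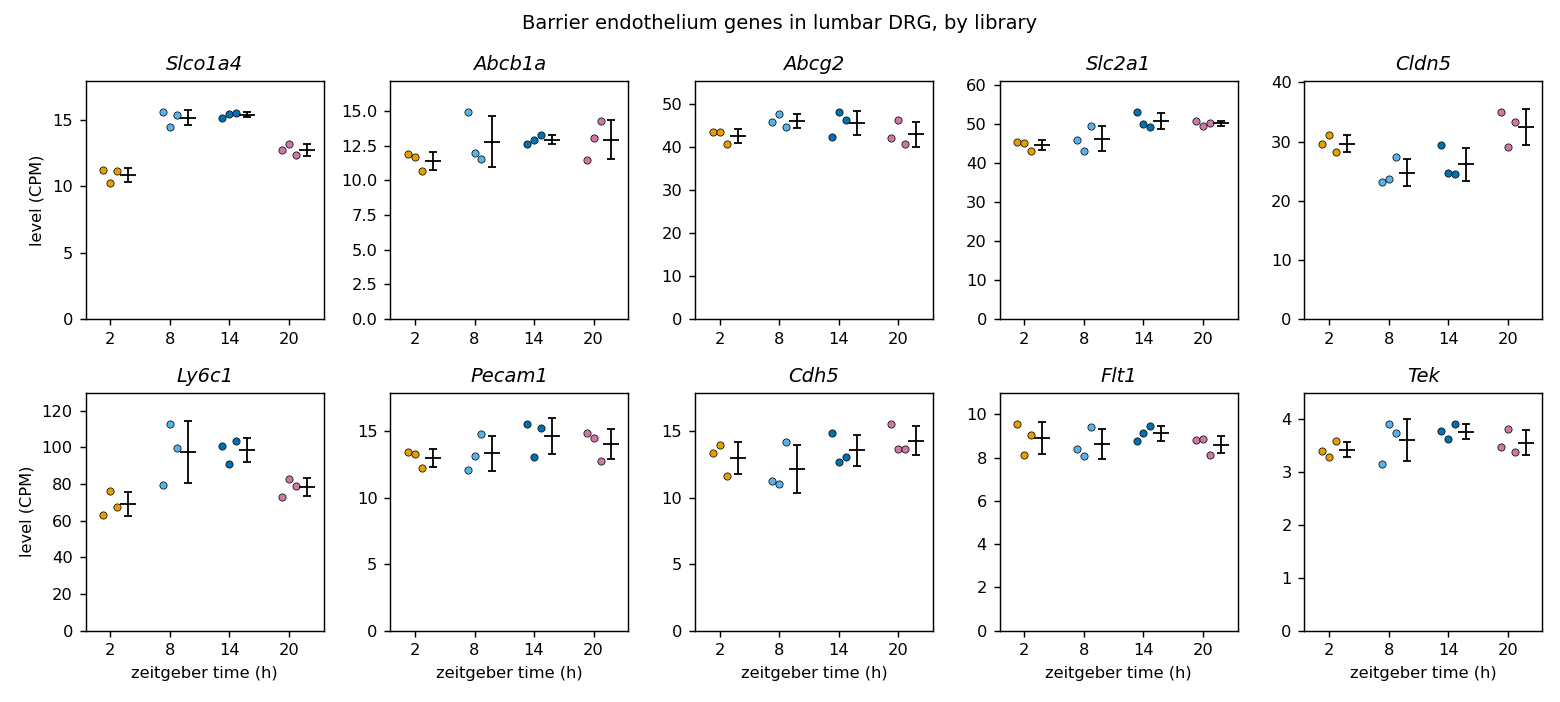
Level in CPM (vertical axes, from 0) of each member against zeitgeber time in hours; points are single libraries and the bar beside them is the mean ± SD of 3. Slco1a4 and Ly6c1 stand higher at ZT8 and ZT14 than at ZT2 and ZT20, Cldn5 is highest at ZT20, and Flt1 stays between 8.09 and 9.56 CPM.

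Slco1a4 was low at ZT2 and high at ZT8 and ZT14. The 3 libraries of each time gave 11.2, 10.3 and 11.1 CPM at ZT2, 15.6, 14.5 and 15.4 at ZT8, 15.2, 15.5 and 15.6 at ZT14, and 12.7, 13.2 and 12.3 at ZT20. No ZT8 or ZT14 library overlapped any library of ZT2 or ZT20, and the ZT20 libraries lay between the other times. ZT14 was 1.42-fold higher than ZT2 (log2 fold change 0.50 ± 0.05, SE), and ZT20 was 0.84 times ZT8 (log2 fold change -0.25 ± 0.05, SE). The 24-h cosine through the 4 time means had an amplitude, the log2 distance from the mean to the peak, of 0.28 ± 0.03 and a peak at 12.2 ± 0.36 h. With samples taken every 6 h, both are estimates from 4 points. ZT8 was already 1.40-fold above ZT2.

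The close relatives of Slco1a4 contributed little RNA. Slco1a5 had time means of 0.84 to 1.02 CPM, Slco1a6 of 0.01 to 0.03 CPM, and Slco1a1 was at 0 in every library of ZT2, ZT14 and ZT20. How the authors' counting split reads among such related genes is not given, so a small share of the Slco1a4 level is uncertain.

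The other drug pumps moved little. Abcb1a ranged from 10.6 to 14.9 CPM over the 12 libraries; each ZT14 library was above each ZT2 library, with a log2 fold change of 0.18 ± 0.10 (SE), and ZT20 against ZT8 gave 0.01 ± 0.10. Its copy Abcb1b, with which reads may be shared, was at 1.87 to 2.14 CPM by time. Abcg2 ranged from 40.6 to 48.0 CPM, with log2 fold changes of 0.10 ± 0.06 (ZT14 over ZT2) and -0.10 ± 0.06 (ZT20 over ZT8), and the times overlapped in both comparisons. Neither gene passed in edgeR's quasi-likelihood test of the 24-h component (adjusted p = 0.994 for Abcb1a and 0.986 for Abcg2).

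Slc2a1 was slightly higher in the second pair of times than in the first. Its levels were 45.3, 45.1 and 43.0 CPM at ZT2, 45.9, 43.0 and 49.5 at ZT8, 53.0, 49.8 and 49.2 at ZT14, and 50.8, 49.4 and 50.0 at ZT20. All 3 ZT14 libraries were above all 3 of ZT2, whereas the ZT20 values fell within or just above the range of ZT8. The log2 fold changes were 0.19 ± 0.05 (SE) for ZT14 over ZT2 and 0.12 ± 0.05 for ZT20 over ZT8, and the 24-h amplitude of 0.11 ± 0.03 did not pass after adjustment over all genes (edgeR adjusted p = 0.632). The antisense genes Gm12867 and Gm12868 overlap Slc2a1; strand handling is not given, so their reads cannot be separated from it.

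Ly6c1 had the largest amplitude of the members, with a wide spread at ZT8. Its levels were 63.2, 76.2 and 67.6 CPM at ZT2, 79.3, 112.9 and 99.7 at ZT8, 100.9, 91.1 and 103.7 at ZT14, and 73.1, 82.7 and 79.1 at ZT20. All ZT14 libraries stood above all of ZT2, and the ZT8 library at 79.3 CPM overlapped those of ZT20. ZT14 was 1.43-fold higher than ZT2 (log2 fold change 0.51 ± 0.11, SE; edgeR adjusted p = 0.339), and ZT20 against ZT8 gave -0.31 ± 0.11 (adjusted p = 0.916). Without ZT8 replicate 1 the second of these was -0.44, and without ZT8 replicate 2 it was -0.19. The amplitude was 0.30 ± 0.06 with a peak at 11.9 ± 0.72 h (edgeR adjusted p = 0.379 for the 24-h component). The monocyte relative Ly6c2, whose sequence is near-identical and whose reads may be shared, ran otherwise, with time means of 7.11 CPM at ZT2, then 5.58 at ZT8, 5.25 at ZT14 and 3.54 at ZT20. The summed level of 11 markers of monocytes, macrophages and platelets was 34.3 to 45.6 CPM at ZT2, 31.6 to 48.1 at ZT8, 37.0 to 42.3 at ZT14 and 34.2 to 41.4 at ZT20; their part in the Ly6c1 values was not tested.

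Cldn5 ran in the other direction. Its levels were 29.5, 31.1 and 28.3 CPM at ZT2, 23.1, 23.8 and 27.3 at ZT8, 29.4, 24.7 and 24.5 at ZT14, and 35.0, 29.1 and 33.3 at ZT20. The lowest ZT20 library was above the highest ZT8 library, while ZT14 and ZT2 overlapped through the ZT14 library at 29.4 CPM. ZT20 was 1.31-fold higher than ZT8 (log2 fold change 0.39 ± 0.09, SE; edgeR adjusted p = 0.623), and ZT14 against ZT2 gave -0.18 ± 0.09 (adjusted p = 1). The amplitude was 0.22 ± 0.05 with a peak at 21.6 ± 0.82 h (edgeR adjusted p = 0.539 for the 24-h component). Cldn5 is a single transcript of 1416 bases in the annotation.

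Set against each other within a library, Ly6c1 and Cldn5 separated the times more clearly than either gene alone, a ratio chosen after its values were seen and not tested. Ly6c1 was 2.14 to 2.45 times Cldn5 at ZT2, 3.43 to 4.75 times at ZT8, 3.43 to 4.23 times at ZT14 and 2.09 to 2.85 times at ZT20. The ratio of Slco1a4 to Cldn5 was 0.33 to 0.39 at ZT2, 0.56 to 0.67 at ZT8, 0.52 to 0.63 at ZT14 and 0.36 to 0.45 at ZT20. In both ratios each ZT8 and ZT14 library was above each ZT2 and ZT20 library.

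The pan-endothelial junction proteins and the receptors had 24-h amplitudes of 0.02 to 0.12, smaller than those of Slco1a4, Ly6c1 and Cldn5. Cdh5 nonetheless spread 1.41-fold over the 12 libraries. Pecam1 ranged from 12.1 to 15.6 CPM, with a log2 fold change of 0.17 ± 0.09 (SE) for ZT14 over ZT2 and 0.07 ± 0.09 for ZT20 over ZT8. Cdh5 ranged from 11.0 to 15.5 CPM, with 0.06 ± 0.11 and 0.23 ± 0.11 for the same comparisons. Flt1, between 8.09 and 9.56 CPM, gave 0.04 ± 0.08 and -0.01 ± 0.08. Tek ranged from 3.14 to 3.90 CPM and gave 0.14 ± 0.10 and -0.02 ± 0.10, with every ZT14 library above every ZT2 library. The 95% interval for ZT14 against ZT2 reached from a 0.91-fold to a 1.16-fold level for Flt1. For Tek it reached from a 0.95-fold to a 1.28-fold level, so changes within these limits were not excluded. None of these 4 passed in edgeR's test of the 24-h component (adjusted p = 0.993 for Pecam1, 0.989 for Cdh5, 1 for Flt1 and 0.999 for Tek).

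**Figure D2:**
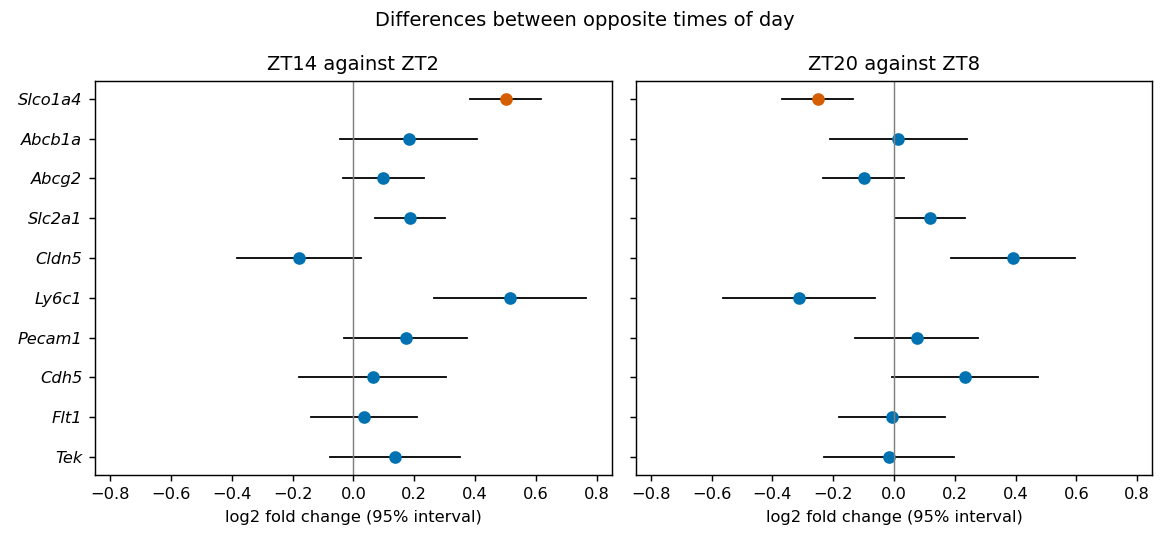
Log2 fold change with its 95% interval for each member, ZT14 against ZT2 on the left and ZT20 against ZT8 on the right; Slco1a4, chosen for its time pattern, is in orange. Slco1a4 and Ly6c1 are above 0 on the left and below 0 on the right, Cldn5 has the largest positive value on the right, and the intervals of Flt1 and Tek span 0 in both.

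Over the 10 members, 1 passed an adjusted p of 0.05 in the test of the 24-h component, against 0.0659% of all 25809 genes tested. That 1 was Slco1a4, which the choice of members had fixed, and the same gene was the 1 member to pass for any difference between times (background 0.0504%) and for ZT14 against ZT2 (background 0.0465%). For ZT20 against ZT8, 0 of 10 passed (background 0.0232%). Of the other 9 members, 0 passed any of these 4 edgeR tests. At an unadjusted p under 0.05, 3 of the 9 (Ly6c1, Cldn5 and Slc2a1) stood out in the 24-h test, where 5.20% of all genes did. The same unadjusted threshold was met by 3 of 9 for any difference (6.19% of all genes), 2 of 9 for ZT14 over ZT2 (5.19%) and 3 of 9 for ZT20 over ZT8 (5.28%). These members are measured in the same libraries, so they are not independent of each other. They were also named with earlier results of these data known, so these shares are a description.

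The choice of tool changed a call for 3 members. DESeq2 called Ly6c1 and Cldn5 in the 24-h test, with adjusted p = 0.00101 for Ly6c1 (0.00101 to 0.723 over 22 other settings) and 0.0234 for Cldn5 (0.0234 to 0.948). It likewise called Ly6c1 for ZT14 against ZT2 (adjusted p = 0.00627, range 0.00627 to 0.828) and Cldn5 for ZT20 against ZT8 (adjusted p = 0.0390, range 0.0390 to 1), while limma called 0 of the 9. For ZT20 against ZT8 DESeq2 also called Slco1a4, which edgeR did not; its direction was fixed by the choice of members. DESeq2 called 165 genes in the 24-h test where edgeR called 17. The edgeR call of Slco1a4 itself was lost with the endothelial score as a covariate, where its amplitude was 0.26. That score, described below, itself differed between ZT2 and ZT14, so its part and that of time cannot be told apart.

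The direction of Slco1a4 was fixed by its choice, so directions are counted over the other 9 members. Of these 8 were above 0 for ZT14 against ZT2, with a median log2 fold change of 0.14; over all genes tested 49.9% were above 0 and the median was 0.00. In 4 of the 9, Abcb1a, Slc2a1, Ly6c1 and Tek, every ZT14 library was above every ZT2 library, against a background of 5.79% of all genes. For ZT20 against ZT8, 5 of the 9 were above 0 with a median of 0.01, and the libraries did not overlap in 1, Cldn5 (higher), which is near the background of 9.90% of all genes. The median 24-h amplitude of the 9 was 0.09 and that of all genes 0.10; among all genes of 5 CPM or more it was 0.05.

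Other endothelial genes were also above 0 for ZT14 over ZT2, but none passed. A list of 18 includes receptors, transcription factors and surface proteins. For ZT14 against ZT2, 18 of 18 were above 0 with a median log2 fold change of 0.17. For ZT20 against ZT8, 10 of 18 were, with a median of 0.02. After adjustment 0 of 18 passed any edgeR test. Against 5.20% of all genes in the 24-h test, 4 of 18 had an unadjusted p under 0.05. Their summed level was 251 to 274 CPM at ZT2, 256 to 320 at ZT8, 282 to 329 at ZT14 and 275 to 293 at ZT20, so that ZT14 was above ZT2 and overlapped ZT8 and ZT20. The mean log2 CPM of the 18 was used as an endothelial score for each library, and member levels were then read relative to it.

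Relative to the endothelial score, some times still stood apart in members such as Slco1a4, Ly6c1, Cldn5 and Cdh5, and Pecam1 was level. Log2 CPM of Slco1a4 exceeded the score by 0.32 to 0.49 at ZT2, 0.72 to 0.94 at ZT8, 0.58 to 0.77 at ZT14 and 0.54 to 0.56 at ZT20. For Cldn5 the excess was 1.79 to 1.92 at ZT2, 1.51 to 1.60 at ZT8, 1.37 to 1.53 at ZT14 and 1.68 to 1.99 at ZT20, so that the ZT14 and ZT2 libraries no longer overlapped. Ly6c1 exceeded the score by 2.89 to 3.21 at ZT2, 3.28 to 3.85 at ZT8, 3.31 to 3.45 at ZT14 and 3.06 to 3.24 at ZT20, each ZT8 and ZT14 library being above each ZT2 and ZT20 library. The Cdh5 excess was 0.553 to 0.756 at ZT2, 0.462 to 0.600 at ZT8, 0.458 to 0.548 at ZT14 and 0.590 to 0.825 at ZT20. Each ZT14 library was thus below each ZT2 and ZT20 library for Cdh5. Pecam1 averaged 0.66 at ZT2, again 0.66 at ZT8, 0.61 at ZT14 and 0.68 at ZT20. These differences were within its spread of 0.04 to 0.09 between libraries (SD).

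With the score as a covariate in edgeR, the 24-h amplitude was 0.26 for Slco1a4, 0.30 for Ly6c1 and 0.25 for Cldn5, close to the values without it. That of Slc2a1 was 0.05 with the score and 0.11 without it, and that of Pecam1 0.04 with and 0.09 without. The amplitude was larger with the score for Cdh5 (0.15, and 0.12 without it), Abcb1a (0.14, 0.09), Abcg2 (0.08, 0.07) and Flt1 (0.05, 0.02). For Tek it was 0.05 with and 0.07 without. In this fit the lowest adjusted p of the 24-h component among the 9 members other than Slco1a4 was 0.475, for Cldn5. The log2 fold change of Cldn5 for ZT14 against ZT2 was -0.35, larger in size than the -0.18 without the score. The score itself was 2.99 to 3.09 in the ZT2 libraries and 3.18 to 3.35 in those of ZT14. For that comparison the parts of score and time therefore cannot be told apart. Red cell markers also moved with time, being lowest at ZT20 as given above, and their part in the member levels was not tested.

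**Figure D3:**
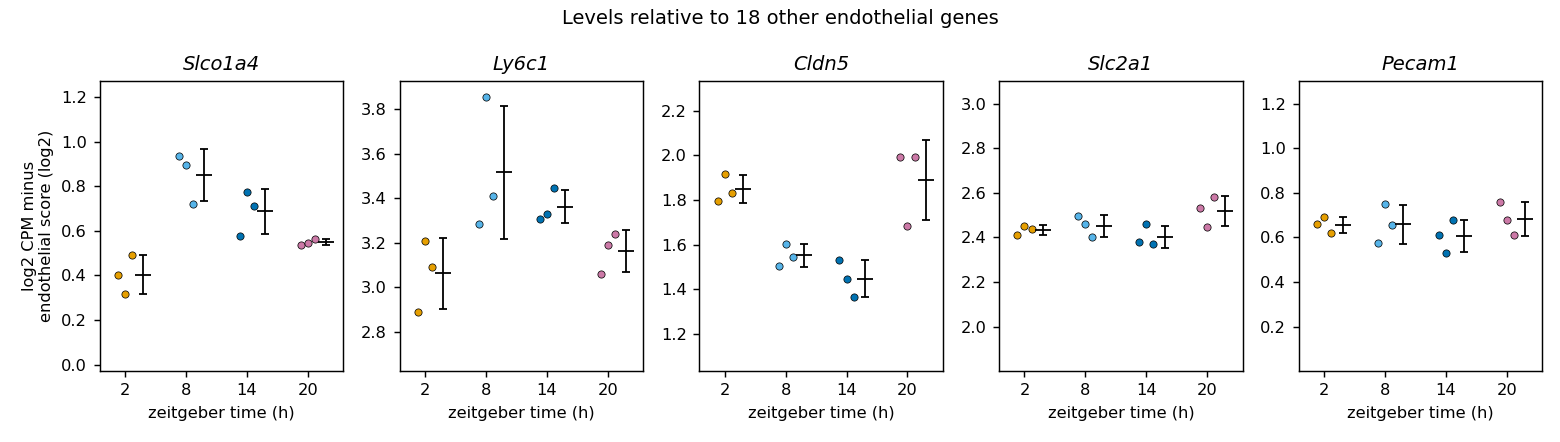
Log2 CPM minus the endothelial score (vertical axes, each spanning the same log2 range) against zeitgeber time in hours for 5 members; points are libraries and bars are means ± SD of 3. Cldn5 is 1.37 to 1.60 at ZT8 and ZT14 and 1.68 to 1.99 at ZT2 and ZT20, while Pecam1 is level.

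Across the 12 libraries, levels of 2 members followed the endothelial score. Pearson's r was 0.846 for Pecam1 (permutation p = 0.00054, adjusted p = 0.0059 over 20 relations; Spearman's rho 0.804, p = 0.00266, adjusted p = 0.039; n = 12). For Slc2a1 r was 0.846 (permutation p = 0.00059, adjusted p = 0.0059; rho 0.706, p = 0.0129, adjusted p = 0.0863; n = 12). Without the 2 libraries farthest from the median score, r was 0.849 for Pecam1 and 0.731 for Slc2a1. Without ZT14 replicate 1, the library of highest score, 0 of the 20 relations passed by Pearson's r. Without ZT8 replicate 2 or without ZT20 replicate 2, 4 did. The r of Cldn5 with the score was 0.067 (permutation p = 0.835, adjusted p = 0.922; rho 0.119, adjusted p = 0.771). Both members and score are taken from the same libraries.

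Other relations passed when each time's mean was removed, so that libraries were compared within a time. Then 0 of 10 relations with the endothelial score passed, although r changed little for Pecam1 and Slc2a1. Permuting only inside times leaves fewer arrangements than permuting over all libraries. The r was 0.817 for Pecam1 (permutation within times, adjusted p = 0.0751), 0.844 for Slc2a1 (adjusted p = 0.0793) and 0.829 for Cdh5 (adjusted p = 0.0751). For Cdh5 it had been 0.650 over all libraries (permutation adjusted p = 0.114). The muscle score was the mean log2 CPM of 10 skeletal muscle markers. By Pearson's r 3 relations with it passed within times, and 0 had passed over all libraries. These were Cdh5 with r of 0.831 (permutation adjusted p = 0.0128; rho 0.895, adjusted p = 0.0136), Cldn5 with 0.871 (adjusted p = 0.0215; rho 0.839, adjusted p = 0.0529) and Slc2a1 with 0.675 (adjusted p = 0.0215; rho 0.818, adjusted p = 0.0313). Without the 2 libraries farthest from the median they were 0.986, 0.877 and 0.898 in the same order. Over all 12 libraries Cdh5 had an r of 0.648 with the muscle score (permutation p = 0.0225, adjusted p = 0.114). Its rank relation with that score did pass over all libraries (Spearman's rho 0.783, permutation p = 0.0039, adjusted p = 0.039). Without the 2 libraries farthest from the median, its r was 0.879. With the muscle score as a covariate, the amplitude of Cldn5 was 0.22 as before and passed in edgeR (adjusted p = 0.0412, within the range of 0.0234 to 0.948 over the other settings).

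**Figure D4:**
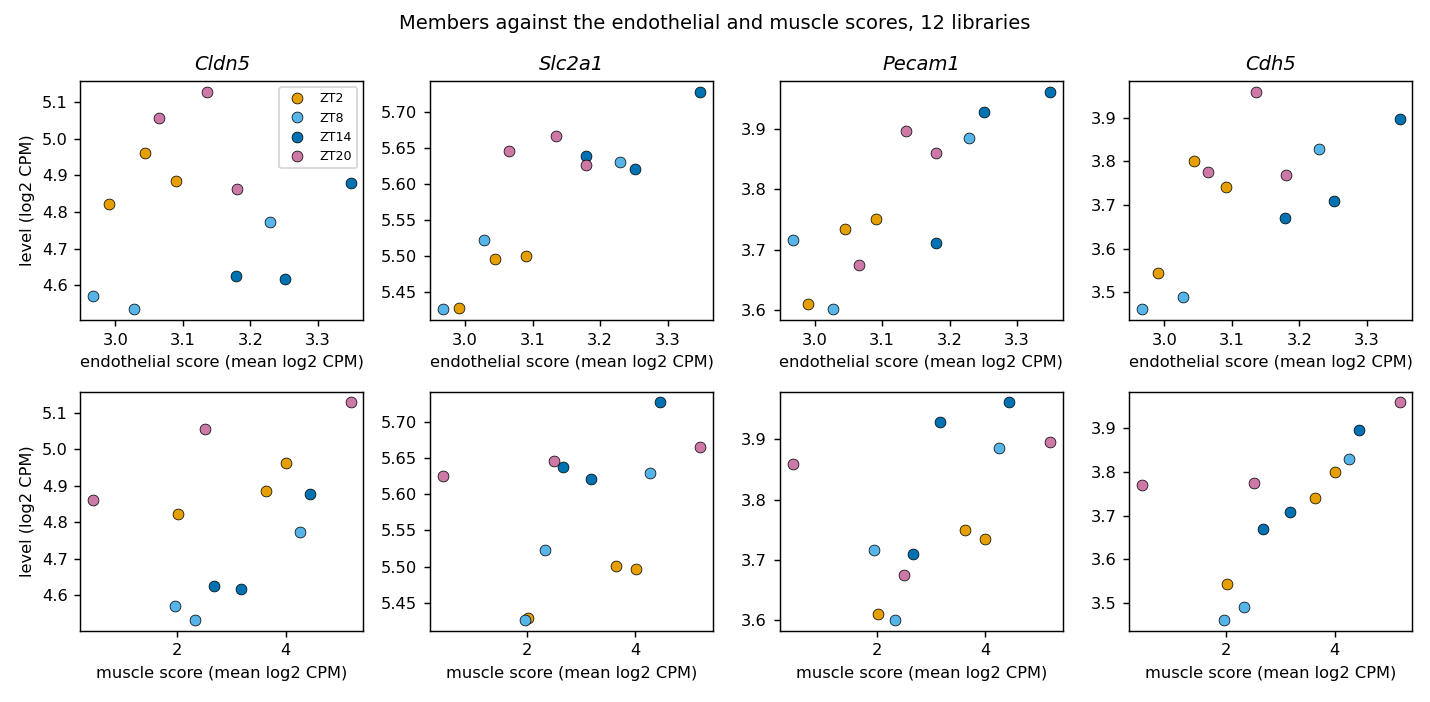
Log2 CPM of 4 members against the endothelial score (top) and the muscle score (bottom), both in mean log2 CPM; each point is 1 of 12 libraries, coloured by time. Pecam1 and Slc2a1 climb with the endothelial score (r of 0.846 each over all libraries), and at each time the library of highest muscle score has the highest Cdh5.

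Among other genes of the barrier, no listed gene passed an edgeR test. At an unadjusted p under 0.05, the 24-h test held 3 of 20 transporters, 2 of 13 junction genes and 1 of 13 signalling genes. The share of all genes was 5.20%. The genes named next are the most abundant of each list, and which cells of the ganglia carry them was not measured. Of 20 further barrier transporters 0 passed, 13 were above 0 for ZT14 against ZT2 with a median log2 fold change of 0.10, and 11 for ZT20 against ZT8 with a median of 0.01. The most abundant were Slc3a2, the heavy chain of amino acid carriers, at 149 CPM over the 12 libraries, with a log2 fold change of -0.02 ± 0.06 (SE) for ZT14 against ZT2, and the nucleotide pump gene Abcc5 at 89.6 CPM, with -0.05 ± 0.06. Of 13 junction proteins 0 passed, 10 were above 0 for ZT14 over ZT2 and 6 for ZT20 over ZT8, with medians of 0.04 and -0.01. The junctional adhesion genes Jam3 and Jam2 gave 0.12 ± 0.05 and 0.12 ± 0.03 for ZT14 against ZT2. Of 13 tested genes of Wnt and norrin signalling, which is known to induce barrier traits, 0 passed and 6 were above 0 for ZT14 against ZT2, with a median of -0.01; Ctnnb1, for beta-catenin, gave -0.05 ± 0.04 and its list mate Tspan12, a norrin co-receptor, -0.01 ± 0.08.

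Ligands and receptors around Flt1 and Tek were tested as a list of 12, of which 0 passed. In the 24-h test 3 of 12 had an unadjusted p under 0.05, against 5.20% of all genes. Of the 12, 8 were above 0 for ZT14 against ZT2, with a median of 0.13. For ZT20 against ZT8 6 were, with a median of 0.01. Vegfa, a ligand of Flt1, was at 56 CPM and gave -0.03 ± 0.05 for ZT14 against ZT2. Vegfb, another Flt1 ligand, averaged 36.0 ± 5.05 CPM (SD, n = 3) at ZT2, then 37.6 ± 10.3 at ZT8, 47.1 ± 4.04 at ZT14 and 53.9 ± 8.14 at ZT20, with an amplitude of 0.32 ± 0.09 that did not pass (edgeR adjusted p = 0.792). The Flt1 level beside it stayed within 8.60 to 9.13 CPM by time mean.

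Vessel types other than barrier capillaries gave no gene called by edgeR either; of the genes named here DESeq2 called Rgcc in the 24-h test. Of 9 genes of fenestrated or muscle-type capillaries 7 were above 0 for ZT14 against ZT2 (median 0.27); Rgcc, a regulator of the cell cycle expressed in capillaries, gave 0.27 ± 0.05 (edgeR adjusted p = 0.144) and Aqp1, a water channel also found in other cells, -0.03 ± 0.05. Of 9 arterial genes 6 were above 0 (median 0.13), Hey1 giving 0.04 ± 0.04 and Efnb2 -0.06 ± 0.08. Of 7 venous genes 6 were above 0 (median 0.37), Nr2f2 giving 0.09 ± 0.08 and Ackr1 0.57 ± 0.35. Of 4 tested lymphatic genes 2 were above 0 (median 0.13), with Pdpn at -0.18 ± 0.06 and Reln at -0.01 ± 0.11. Of 13 genes of pericytes and vascular smooth muscle 12 were above 0 (median 0.28), Rgs5 giving 0.07 ± 0.05 and Vtn 0.30 ± 0.23. For ZT20 against ZT8 the medians of these lists were -0.01, -0.02, -0.20, 0.05 and 0.01 in the same order. The 24-h test held 2, 1, 3, 1 and 2 of their genes at an unadjusted p under 0.05, in that order. The share of all genes was 5.20%.

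**Figure D5:**
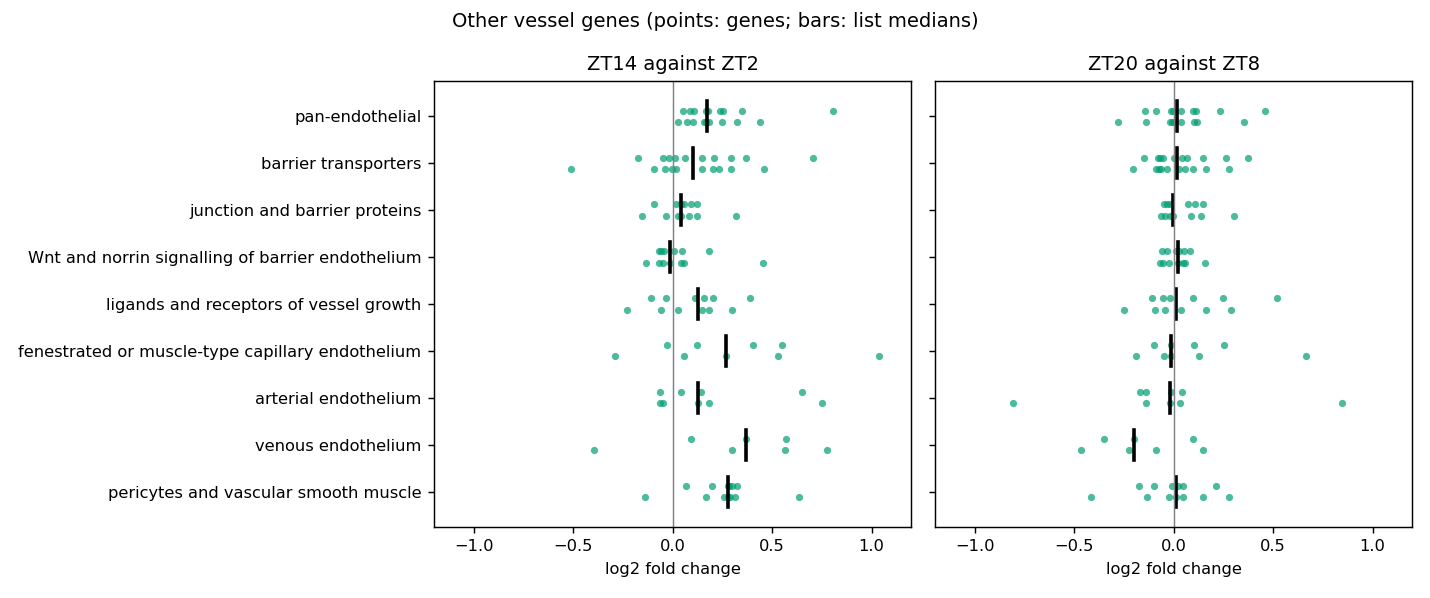
Log2 fold change of single genes (points) and list medians (bars) for 9 lists of vessel genes that exclude the members, ZT14 against ZT2 on the left and ZT20 against ZT8 on the right. All 18 pan-endothelial genes lie above 0 on the left, where the list median is 0.17, and spread around 0 on the right.

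The remaining lists gave the setting of the tissue. Of 5 perineurial and meningeal genes 5 were above 0 for ZT14 against ZT2 (median 0.26) and 0 passed. Of 7 tested paralogs of members, 0 passed and 5 were above 0 (median 0.13). Of 11 monocyte, macrophage and platelet genes 5 were above 0 (median -0.06), of 10 muscle genes 5 (median -0.02), of 9 neuronal genes 4 (median -0.01), of 10 glial genes 7 (median 0.05), and of 7 brain and spinal cord genes 5 (median 0.12); among these 5 lists the glial gene Fabp7 was the one called. Of 5 red cell genes 5 were above 0 (median 0.48), Alas2 passed for any difference between times, and for ZT20 against ZT8 0 were (median -1.27). Of 14 clock genes 8 passed the 24-h test, and their peaks were spread over the day. Arntl peaked at 23.1 h, Per3 at 10.7, Tef at 10.8, Dbp at 9.9, Ciart at 9.8, Nr1d2 at 9.4 and Nr1d1 at 8.0. Per2, which closes the clock's feedback loop, peaked at 12.0 ± 0.40 h. It was the nearest of the 8 to the 12.2 h of Slco1a4, and a shared phase was not tested. Of 11 tested nuclear receptor and glucocorticoid-responsive genes 0 passed and 10 were above 0 for ZT14 against ZT2 (median 0.07).

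Among 11098 protein-coding genes of 5 CPM or more, the 5 whose log2 deviations over the 12 libraries were most like those of Slco1a4 included Rnf121, Tns2, Cercam and Galnt16. Their root mean square difference from Slco1a4 was 0.0996, 0.125, 0.131 and 0.131 in log2 CPM, against a median of 0.225 over all candidates. Rnf121 averaged 12.2 CPM at ZT2, then 16.0 at ZT8, 16.2 at ZT14 and 14.6 at ZT20. Among the members Ly6c1 was nearest to Slco1a4, at 0.162, and Cldn5 farthest, at 0.357. A flat gene, with no deviations, would be at 0.209. Abcg2 at 0.174 and Slc2a1, Tek and Abcb1a at 0.188 each were close behind Ly6c1. For the mean of Pecam1, Cdh5, Flt1 and Tek the nearest genes were Snapc2, Ntan1, Rhob, Tmed3 and Spout1. They were at 0.046 to 0.047, against a median of 0.119, and the nearest other member was Slc2a1 at 0.070. A flat gene would here be at 0.084.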

How the data were processed

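Polyadenylated RNA of lumbar DRG was sequenced as paired reads of 150 bases, per the labels' protocols. The submitters' processing notes name HISAT2 2.2.1, StringTie 2.1.5 and build GRCm38.p6; the roles of these tools, the annotation and the strand setting are not stated in them. The authors deposited estimated counts that are not whole numbers and lie on a coverage scale, so that a coverage of 1 has the same value, 16.4 to 17.2, in genes of different length, and 1 read pair covers 300 bases. Fragment numbers are approximations from median transcript lengths, and counting error is not modelled exactly. The 348 assembled loci, 0.203% to 0.231% of a library, were left out.

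Values were rounded and tested with edgeR 4.0.16 (filterByExpr, TMM, robust quasi-likelihood F test, 4 times over 12 libraries, no covariate) in R 4.3.3, on 25809 genes; 12785 fell below the filter. Adjusted p-values are Benjamini-Hochberg values over all tested genes, with a threshold of 0.05. Levels are CPM of the TMM-scaled totals, and log2 CPM has a prior count of 2. Scores are mean log2 CPM of a list. Relations used 100000 two-sided permutations, and within-time values permuted libraries inside each time. The fit and the relations were tested on simulated data. DESeq2 1.42.0, limma 3.58.1, other filters, scalings and covariates were alternatives, and Python 3.11.15 was used for tables and plots. Symbols and coordinates came from GENCODE M21, which 38462 of 38594 IDs matched without their version.

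The members and the 20 lists were chosen with earlier results of these data known. Genes named from a list are those past a test, and otherwise the 2 of highest mean level; other genes named were chosen after their values were seen. 1 gene that the likeness rule names is not reported here.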

Additional observations from a re-analysis of the deposited data

How the results depend on the processing

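The number of genes past an adjusted p of 0.05 depended on the tool and the covariates. The 24-h test called 17 genes, ZT14 against ZT2 12, ZT20 against ZT8 6 and the test of any difference 13. DESeq2 called 165, 106, 68 and 292 in that order, and the cause was not tested. With the endothelial score as covariate the first 2 counts were 9 and 2; approximate fragments gave 19 for ZT14 against ZT2; a filter of 1 CPM gave 21 and the muscle score 20 for any difference. Leaving out 1 library gave 5 to 17, 3 to 13, 0 to 10 and 4 to 22, and leaving out the library richest in muscle at each time, an alternative chosen after seeing the data, gave 4, 0, 5 and 8, with fewer samples. By Pearson's r 2 of the 20 relations with the scores passed, 0 to 4 with 1 library left out, and 0 with scores taken as medians.

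Same-numbered libraries did not deviate together (r of -0.06 to 0.08, median 0.01 over 18 pairs, and 3 of 12 libraries had their best partner in their own number), so the numbers were not used as pairs. A fit with the replicate block called 4 genes in the 24-h test, 5 for ZT14 against ZT2, 2 for ZT20 against ZT8 and 7 for any difference.

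The amplitude of Slco1a4 was 0.26 to 0.29 over 22 other settings. This gene was chosen by its adjusted p, so keeping or losing its calls describes the settings and is no support for a pattern. Its 24-h call was lost with the endothelial score as covariate, with the replicate block, or without the muscle-rich libraries. Its call for ZT14 against ZT2, of 0.46 to 0.52 over these settings, was lost with the endothelial score, without the muscle-rich libraries, and without any 1 of ZT2 replicate 1, ZT2 replicate 2, ZT14 replicate 2 or ZT14 replicate 3. The sign of 16 member values turned. With the endothelial score, ZT14 against ZT2 gave -0.071 for Pecam1 (0.17 without it), -0.24 for Cdh5 (0.06) and -0.090 for Flt1 (0.04). Because the score was itself higher at ZT14 than at ZT2, its part and that of time cannot be told apart there. Without the muscle-rich libraries, ZT20 against ZT8 gave 0.044 for Flt1 and 0.028 for Tek. Leaving out 1 library, ZT14 against ZT2 ranged from -0.030 to 0.087 for Flt1 and from -0.011 to 0.11 for Cdh5, and ZT20 against ZT8 from -0.068 to 0.14 for Abcb1a, -0.11 to 0.046 for Tek and -0.052 to 0.056 for Flt1. With 3 libraries a time, small differences were not detectable.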
